A study of Drosophila melanogaster with 3 samples.

Results

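The peaks of CG15601, a protein tagged with green fluorescent protein (GFP) and mapped in fruit fly embryos by ChIP-seq (sequencing of DNA recovered by chromatin immunoprecipitation), were most crowded in 3 stretches of 80 kb. They are called here by a gene inside each one: the noc window on arm 2L (14470001 to 14550000, dm6), the CG6163 window on arm 3L (11350001 to 11430000) and the plh window on arm 3R (4960001 to 5040000). The members are all peaks of the pooled list whose summit, the highest point of a peak, lies inside one of these bounds, which gave 275 of 30000 pooled peaks: 95 in the noc window, 94 in the CG6163 window and 86 in the plh window. The windows were chosen by that count, so the crowding itself is a description and no test of it is given. The study used 3 samples of 1 group, which the labels call biological replicates: chromatin of whole Drosophila melanogaster embryos of mixed sex, 0 to 14 h old, from a transgenic line that makes CG15601 with GFP at its C-terminus, sheared by sonication to 200 to 800 bp and pulled down with an antibody against GFP. Whole embryos of many ages were mixed, so a peak does not tell in which cells or at which age the protein was present. No group without the tag is among the samples.

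An embryonic regulatory gene in flies is often controlled by enhancers that lie far from its start site, in long stretches with few other genes. The gene noc (no ocelli) is of that kind: it encodes a zinc finger protein of the NET family which, with its relative encoded by elB, acts in the development of the head, the tracheae and the appendages. A transcription factor in ChIP-seq gives peaks both at start sites and at such distant places, and a peak shows recovered DNA, not that the gene nearby responds to the protein.

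The bases around the summits of the 3 strongest members, 1 per window, are shown because the results on where strong peaks lie turn on them. With them stand the peak at the noc start site and the second strongest members of the noc and CG6163 windows. Each line gives the plus strand of the RefSeq copy of genome release 6, from 50 bp before to 50 bp after the summit. The single capital in the middle is the summit base, and a capital run elsewhere is a match to one of the 7 words searched.

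noc window, strongest, chr2L:14494989-14495089: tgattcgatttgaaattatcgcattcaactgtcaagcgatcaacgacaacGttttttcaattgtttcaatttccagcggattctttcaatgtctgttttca
CG6163 window, strongest, chr3L:11405991-11406091: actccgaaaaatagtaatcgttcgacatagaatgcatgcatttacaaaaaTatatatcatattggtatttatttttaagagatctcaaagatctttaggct
plh window, strongest, chr3R:5010287-5010387: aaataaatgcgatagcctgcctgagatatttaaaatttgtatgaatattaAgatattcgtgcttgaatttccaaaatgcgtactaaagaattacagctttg
noc start site, chr2L:14490844-14490944: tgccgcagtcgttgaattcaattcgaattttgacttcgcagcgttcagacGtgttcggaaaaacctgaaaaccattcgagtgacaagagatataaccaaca
noc window, second strongest, chr2L:14505176-14505276: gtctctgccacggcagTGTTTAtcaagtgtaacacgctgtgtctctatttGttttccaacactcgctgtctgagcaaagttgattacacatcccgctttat
CG6163 window, second strongest, chr3L:11418522-11418622: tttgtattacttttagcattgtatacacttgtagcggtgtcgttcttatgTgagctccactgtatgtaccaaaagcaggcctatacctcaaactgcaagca

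Bases G and C made up 34.7%, 27.7% and 29.7% of the strongest summits of the noc, CG6163 and plh windows, and 42.6% of the noc start site. The second strongest summits had 44.6% in the noc window and 40.6% in the CG6163 window. Among the 6 stretches, only the second strongest of the noc window held any of the 7 words: TAAACA, the forkhead type, on the minus strand, so that its reverse complement is printed. The other 6 words, also searched on both strands, were TATAAA of the TATA box, ATCGATA of the DRE motif, TAATTA of homeodomain proteins, AGATAA of the GATA family, GAGAG of the GAGA factor and CAGGTA of the early activator Zelda. No match means only that these letters are not in the 101 bases shown.

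The deposited data are lists of peaks, each with a signal value from the authors' peak caller, which can rank peaks within a list but not between lists. The pooled list was made from the 3 replicates together, and the list filtered by the irreproducible discovery rate (IDR) holds the 6458 strongest of the pooled peaks, so a window's IDR members are simply its strong ones. The replicate lists, of 30000 peaks each, fed the pooled list and are therefore not independent of the choice of windows. The lists hold no read counts, so the depth behind a peak is unknown.

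All 5 lists were crowded in the same 3 places. The IDR list held 12, 22 and 14 members in the noc, CG6163 and plh windows, in all 48 of 275 (17.5%, exact 95% binomial interval 13.2 to 22.5), against 21.6% of the rest of the pooled list and 21.5% of the whole list. In the noc window the lists of replicates 1, 2 and 3 held 85, 84 and 83 peaks, a mean of 84.0 ± 1.0 (SD, n = 3). In the CG6163 window they held 94, 86 and 96, a mean of 92.0 ± 5.29 (SD, n = 3). In the plh window they held 78, 74 and 88, a mean of 80 ± 7.21 (SD, n = 3). The noc window, which had the most pooled peaks, thus had fewer replicate peaks than the CG6163 window in every replicate, and fewer than the plh window in replicate 3. The pooled and replicate lists end at exactly 30000 peaks, so the counts depend on that limit. Among the strongest 15000 pooled peaks, the noc window had the fewest of the 3, with 35, against 54 in the CG6163 window and 43 in the plh window.

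For scale, all of 2L, 2R, 3L, 3R, 4 and X was cut into 1670 stretches of 80 kb from the first base of each arm. These stretches held a median of 16 pooled peaks, with a lowest of 0 and a highest of 93, and a mean of 17.94. The 3 highest were the 3 that overlap these windows most, with 93, 90 and 86 pooled peaks. The next 3 had 84, 77 and 73, and the first of those still shares its end with the CG6163 window. When windows of 80 kb were moved along in steps of 10 kb, none of those clear of all 3 windows held more than 82 pooled peaks. In the IDR list, the stretches cut from the first base held a median of 3 peaks and a highest of 22. Those that overlap a window held at most 18, so the 22 was reached elsewhere, and it equals the count of the CG6163 window. Among the 12 stretches with the most pooled peaks, 2 that overlap no window were 2R 16800001 to 16880000, with 18 IDR peaks, and 3L 720001 to 800000, with 17. Both counts are above the 12 of the noc window and the 14 of the plh window.

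**Figure D1:**
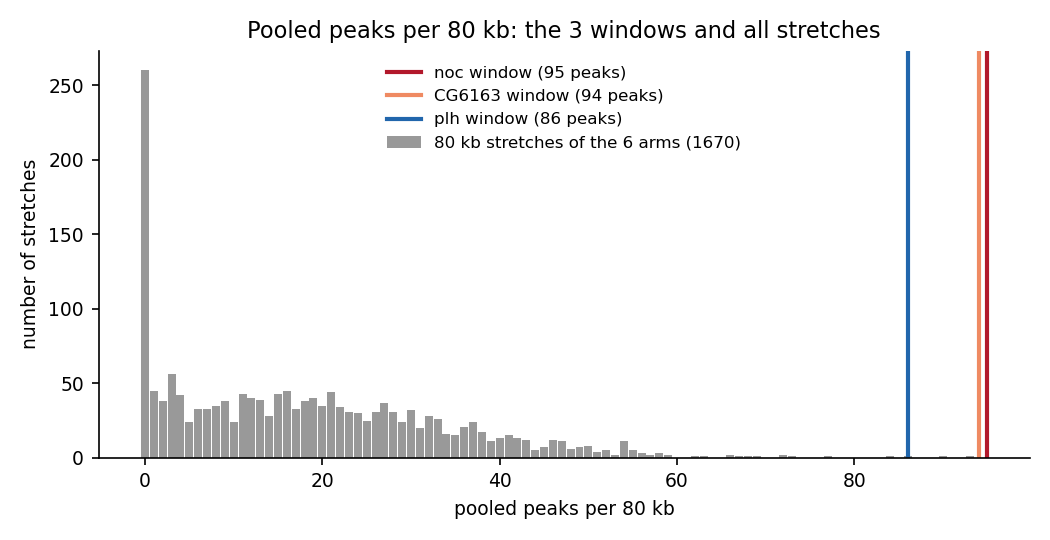
Histogram of pooled peaks per 80 kb over 1670 stretches (grey bars; horizontal axis, peaks per 80 kb; vertical axis, number of stretches), with coloured lines at the counts of the noc, CG6163 and plh windows. The lines stand at 95, 94 and 86 peaks, while the median stretch held 16.

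The crowding went past the chosen bounds, by different amounts. The noc window's 95 pooled peaks stood between flanking stretches of 67 on the lower side and 54 on the upper side. The CG6163 window's 94 stood between 80 and 60. The plh window had the sharpest lower edge, with 86 against 32 below it, but 69 above it. One stretch farther out, the counts were 26 and 44 beside the noc window, 52 and 46 beside the CG6163 window, and 29 and 13 beside the plh window. Strong peaks were also most numerous in the windows: 12 IDR peaks in the noc window against 8 and 7 in its flanks, 22 in the CG6163 window against 11 and 6, and 14 in the plh window against 7 and 12. One stretch farther out there were 5 and 7 IDR peaks beside the noc window, 11 and 10 beside the CG6163 window, and 8 and 2 beside the plh window. Unlike the pooled counts, the IDR counts did not fall at every step outwards.

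**Figure D2:**
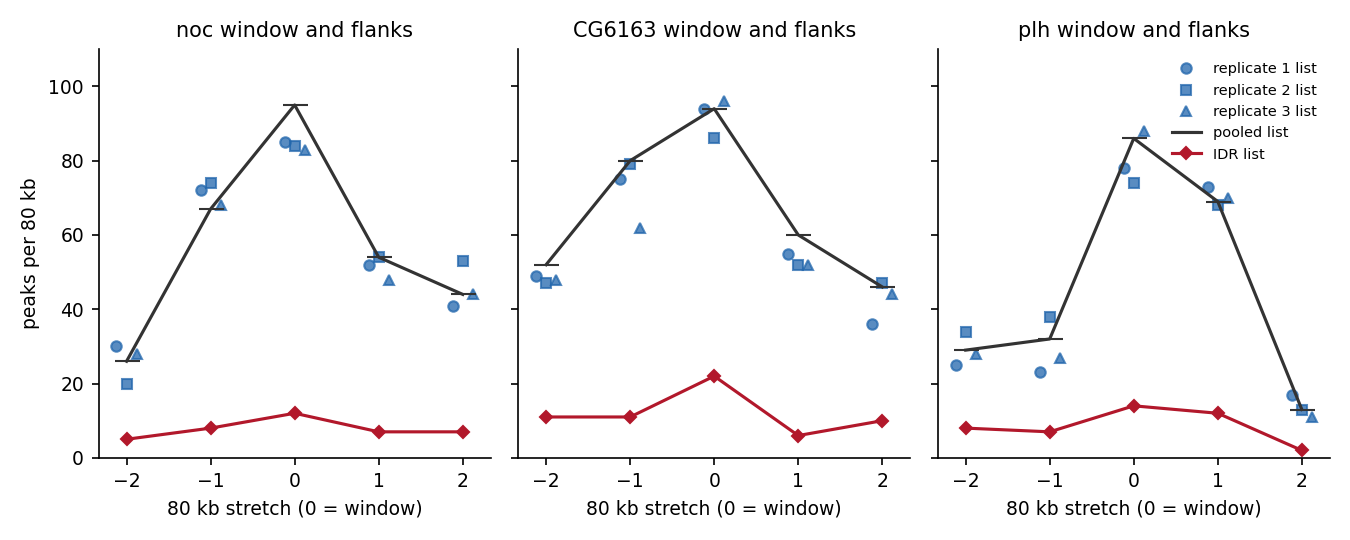
Peaks per 80 kb (vertical axis) in each window (position 0) and in 2 stretches of 80 kb on either side (negative, lower coordinates), for the pooled list (black line), the IDR list (red line) and the 3 replicate lists (blue points). Every list peaked at position 0 in each window, and the plh window had 69 pooled peaks in the stretch above it against 32 in the one below.

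At the low edge of the CG6163 window, the first summit inside, 11350053, had a signal of 590.2, and the last outside, 11349414, had 497.2. Both are strong peaks, so this bound passes through a group of peaks. At the low edge of the noc window the nearest summit inside had a signal of 73.8 and the nearest outside 113.2. At the other edges the inside and outside signals were 44.6 and 46.8 (noc, high), 109.8 and 48.4 (CG6163, high), 102.3 and 78.5 (plh, low), and 91.3 and 111.8 (plh, high).

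The windows hold fewer protein-coding genes than the median stretch. The noc window holds the start sites of 3 (noc, CG33648 and CG4218), the CG6163 window of 4 (CG6163, CG11726, CG44362 and CG7560) and the plh window of 4 (Jhbp2, Jhbp1, CG14662 and plh), against a median of 7 over the 80 kb stretches. The quartiles over those stretches were 3 and 13, so these counts are low but not unusual. Jhbp1 and Jhbp2 are named for binding juvenile hormone, the insect hormone that holds back metamorphosis, and the genes with CG numbers have no given name. The windows also hold 10, 3 and 3 non-coding genes, among them 6 transfer RNA (tRNA) genes in the noc window. The closest protein-coding genes outside are CG15283 and CG3473 beside the noc window, CG6168 and CG6149 beside the CG6163 window, and Jhbp3 and corto beside the plh window. The gene elB, the relative of noc, lies 60452 bp below the noc window and 81310 bp from noc.

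Across the 1670 stretches, pooled peaks and protein-coding start sites rose together (Spearman's rho 0.41, a description over stretches that share the same lists). The 15 stretches with 60 or more peaks held a median of 4 protein-coding genes (0 to 18), against a median of 8 (0 to 70) in the other 1655. Of the 12 most crowded stretches, 7 overlap no window, and these held 1 to 18 protein-coding genes. The 3 with the fewest were 3L 720001 to 800000 (77 peaks, 2 genes), 3R 5040001 to 5120000 (69 peaks, 2 genes), which adjoins the plh window, and 3L 10720001 to 10800000 (66 peaks, 1 gene). The other 4 held 5, 7, 13 and 18.

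A smaller share of members than of other pooled peaks lay at start sites. A summit within 500 bp of an annotated transcription start site (TSS) was called a promoter summit. There were 16 of 95 in the noc window, 9 of 94 in the CG6163 window and 4 of 86 in the plh window, in all 29 of 275 (10.5%, exact 95% binomial interval 7.18 to 14.8). The share in the rest of the pooled list was 31.0%, and that over the whole pooled list 30.8%. By window the shares were 16.8% (noc), 9.57% (CG6163) and 4.65% (plh). Of the bases of these windows, 14.3%, 8.06% and 8.76% lie within 500 bp of a TSS. The share of summits was thus slightly above that of bases in the noc and CG6163 windows, and below it in the plh window. Peaks of 1 window share their surroundings and are not replicates, so intervals cover counting error only.

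**Figure D3:**
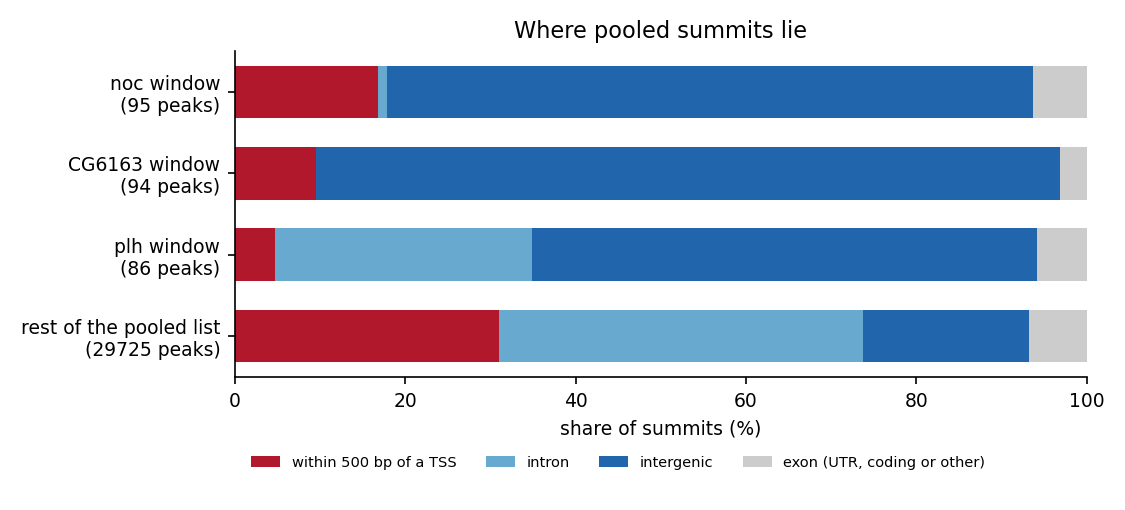
Share of pooled summits (horizontal axis, %) within 500 bp of a TSS, in introns, in intergenic sequence and in exons, for the noc, CG6163 and plh windows and the rest of the pooled list (rows). Intergenic summits were 205 of 275 in the windows (74.5%) and 19.5% in the rest of the list.

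Intergenic sequence held 72 noc window members, 82 CG6163 window members and 51 plh window members, which is 74.5% of all members against 19.5% of the rest of the list. Intergenic bases make up 76.8% of the noc window, 85.8% of the CG6163 window and 48.1% of the plh window, beside 75.8%, 87.2% and 59.3% of their members. The plh window differed in its introns, with 26 of 86 summits there, against 1 in the noc window and 0 in the CG6163 window. The body of plh, from 4986500 to 5011031, itself held 22 members. The median distance of a member to a TSS was 3492 bp, against 1543 bp in the rest of the list, and 100 of 275 (36.4%) lay over 5 kb away, against 23.9%. By window, the medians were 2134 bp (noc), 3519 bp (CG6163) and 5440 bp (plh), and the shares over 5 kb were 26.3%, 30.9% and 53.5%. The exact 95% intervals of these shares were 17.8 to 36.4 (noc), 21.7 to 41.2 (CG6163) and 42.4 to 64.3 (plh). They cover counting error only and are no test against the 23.9%, since the members of a window share the same few start sites.

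Of the 48 IDR members, 4 were promoter summits (8.33%), against 50.9% of the other IDR peaks. Of the 227 weaker members 25 were (11%), against 25.5% of the weaker peaks elsewhere. By window, the IDR and the weaker members had shares of 8.33% and 18.1% in the noc window, 9.09% and 9.72% in the CG6163 window, and 7.14% and 4.17% in the plh window, where 1 or 2 IDR members make up each share. Away from promoters, 44 of 246 members (17.9%) were IDR peaks, against 15.3% of the rest. At promoters 4 of 29 members (13.8%) were, against 35.4%.

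Among protein-coding genes, 7 of the 11 had a pooled summit within 500 bp of their TSS, and 1 of the 11, noc, had one in the IDR list. Over all 13945 protein-coding genes the shares were 47.9% and 26.7%. CG11726, Jhbp1, CG14662 and plh had none within 500 bp. At the other 6 genes with a promoter summit, none was an IDR peak, and the best summit ranked between 10294th, at CG44362, and 29160th, at CG4218. All 6 tRNA genes had a pooled summit within 500 bp, against 62.4% of all 290 tRNA genes, but they share 5 summits among them. Of the 10 other non-coding genes 9 had one, against 26.5% of all 3929. The windows were chosen for their many pooled summits, with 1.188 (noc), 1.175 (CG6163) and 1.075 (plh) per kb. By that choice any start site in them is more likely to have a pooled summit within 500 bp. The pooled shares of protein-coding, tRNA and other non-coding genes are therefore no test of a preference for their start sites. IDR summits stood at none of the tRNA genes (11.7% over all) and at 2 of the 10 others (8.45% over all). These 2 were lncRNA:CR42755 in the CG6163 window (rank 6008) and lncRNA:CR45585 in the plh window (rank 3599). Of the tRNA genes, 5 are copies for glycine, and reads of such copies may have been shared among them. The best summits at tRNA genes ranked between 14987th and 26657th.

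**Figure D4:**
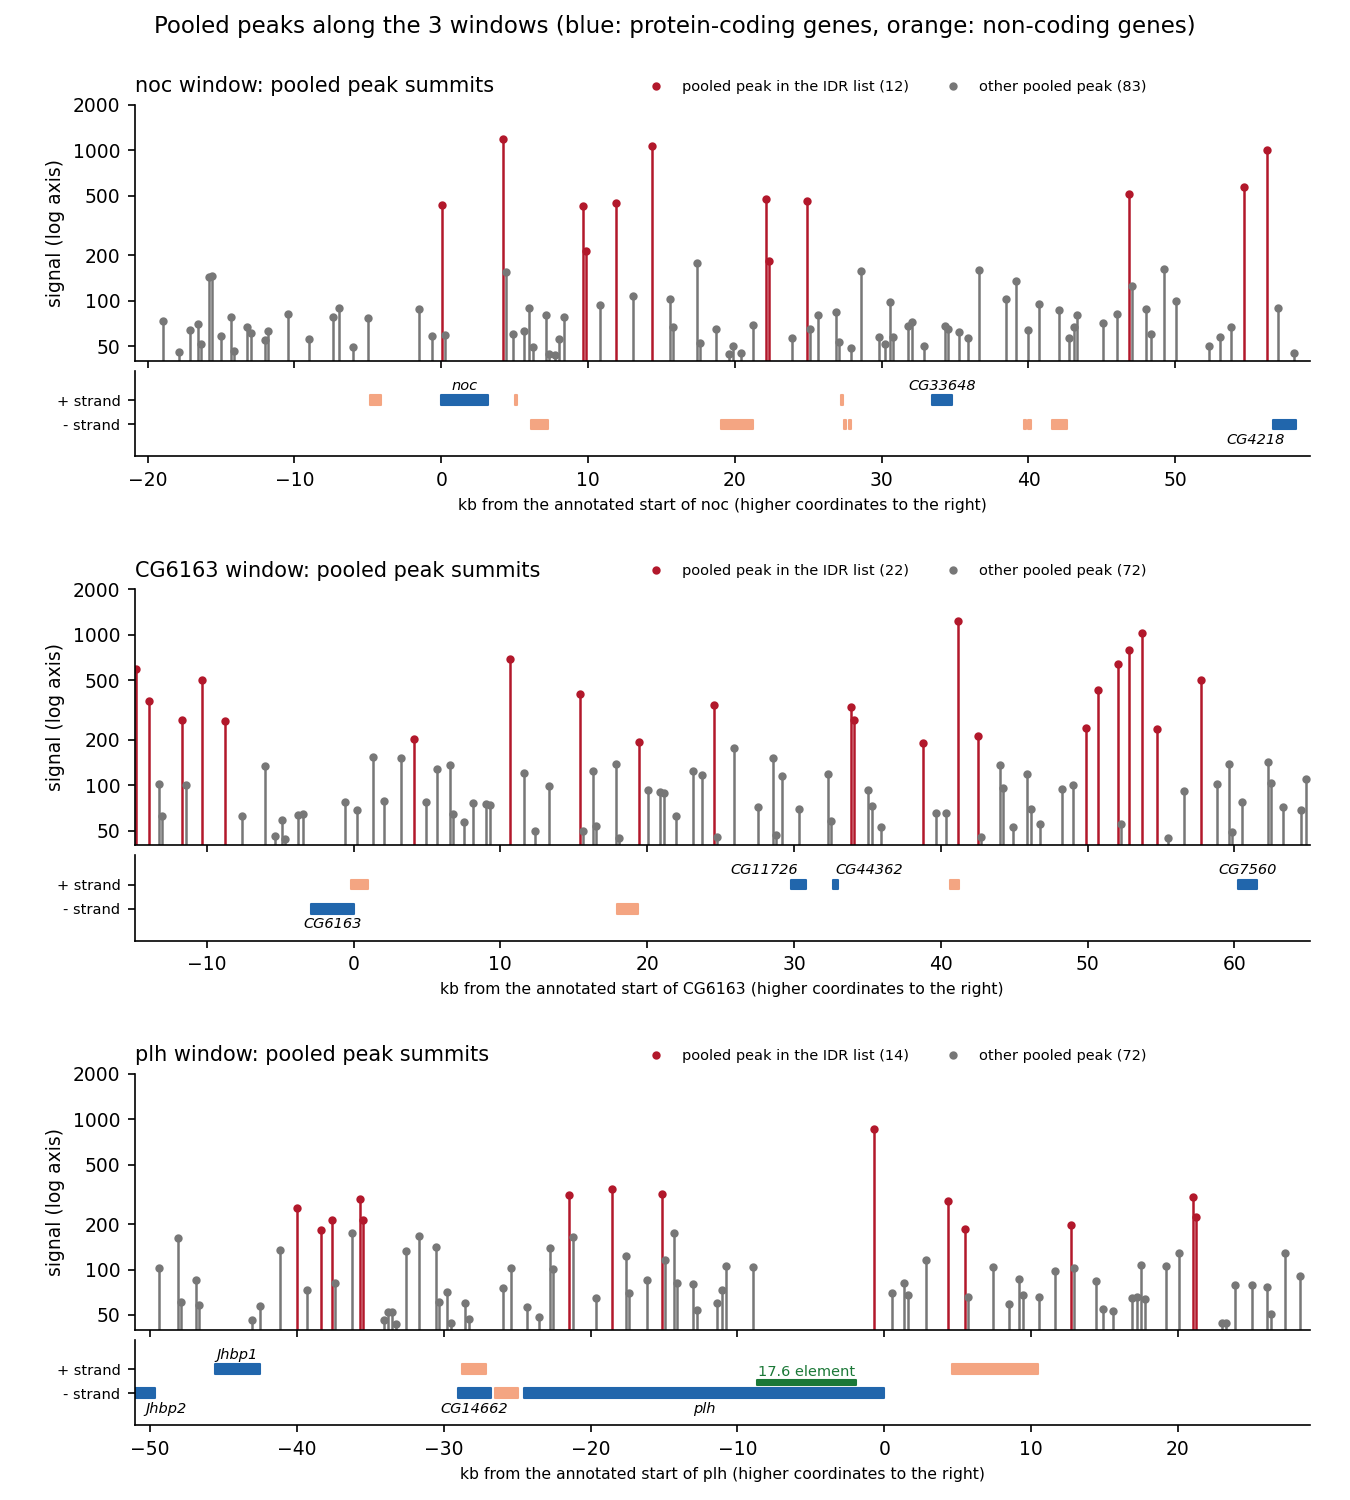
Signal of each pooled peak (vertical log axis) along the noc, CG6163 and plh windows (horizontal axis, kb from the annotated start of the named gene), with IDR members in red, other members in grey, genes as boxes by strand and the 17.6 element in green. The strongest members lie beside rather than at protein-coding starts, and the plh window has a gap of 8214 bp over the 17.6 element.

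Inside the bounds of the noc window, the strong peaks lay on one side of noc. The gene runs on the plus strand from 14490859 to 14494019, and all 12 IDR members lay at or downstream of its start, while the members before it had signals of at most 145.0. The low bound lies nearer to noc than the high bound, and the 80 kb below it held 8 IDR peaks, so this holds for the window only. The peak at the start site had its summit at 14490894, 35 bp inside the gene, with a pooled signal of 435.7 (rank 1883). It ranked 1833rd, 3038th and 1519th in replicates 1, 2 and 3. The annotated body of noc held no pooled summit beyond the first 236 bp, and the longest stretch of the window without one, 3944 bp, ran from there past the end of the gene.

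The strongest member of the noc window followed that stretch, at 14495039, 4180 bp from the noc TSS and 839 bp from the gene tRNA:Pro-AGG-1-1. It had a pooled signal of 1184 (rank 333) and ranked 650th in replicate 1, 402nd in replicate 2 and 206th in replicate 3. The next, at 14505226, had 1071 (rank 405) and ranked 509th, 280th and 557th in replicates 1, 2 and 3. It is intergenic, 14367 bp from noc and 6857 bp from lncRNA:CR45693. Next came 14547108, which had 1012 (rank 451) and ranked 460th, 498th and 404th. It lies 2001 bp from the TSS of CG4218, past its 3′ end.

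Which of these 3 was the strongest depended on the replicate. The peak near CG4218 led in replicate 1, the one at 14505226 in replicate 2 and the one at 14495039 in replicate 3, so their order is within the spread between replicates. All 3 were among the strongest 650 peaks of every list. The peak at 14545544 had a signal of 573.7 (rank 1231) and ranked between 775th and 1953rd in the replicates. The peak at 14537681 had 511.3 (rank 1458). In replicate 3 it overlapped a narrow peak of 116 bp with the same summit, ranked 1753rd, which was too narrow to count as matched by 50% of both intervals.

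The CG6163 window had the most strong members, 22 of 94. That is 23.4%, near the 21.5% of the whole pooled list. The share was 12.6% in the noc window and 16.3% in the plh window. The CG6163 window also had the highest median signal, 97.6, against 69.7 in the noc window and 82.7 in the plh window. The rest of the pooled list had a median of 83.7. The gene CG6163 itself was not where the strong members lay. Its TSS had a summit 245 bp away that ranked 18745th, and the longest stretch without a summit, 2896 bp, covered most of the gene's body.

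The strongest member of the CG6163 window, and of all 3 windows, had its summit at 11406041, in the exon of lncRNA:CR44363 and 506 bp from that gene's TSS, just past the bound for a promoter summit. Its pooled signal was 1227 (rank 312), and it ranked 272nd, 380th and 316th in replicates 1, 2 and 3. It was the strongest peak of the window in every list, with replicate summits 13 to 19 bp from the pooled one.

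A tight group of strong members lay on the lower side of CG7560, in intergenic sequence. From 11414809 to 11422581, a span of 7772 bp, there were 7 IDR members, 2577 to 10349 bp from the CG7560 TSS. They included 3 of the 5 strongest of the window, at 11418572 (signal 1029, rank 434), 11417715 (788.1, rank 722) and 11416937 (638.8, rank 1024). The peak at 11418572 ranked 283rd, 674th and 496th in replicates 1, 2 and 3, and that at 11417715 ranked 709th, 687th and 832nd. That at 11416937 was less even, at 1000th, 777th and 1856th. Those 7 in 10 kb compare with at most 4 in any 10 kb of the noc window and 5 in the plh window, and with a highest of 10 anywhere in the IDR list. The CG7560 start itself had a summit 216 bp away ranked 16265th.

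One of the 5 strongest of the CG6163 window stood alone, at 11375515, 10630 bp from the CG6163 TSS and 8743 bp from lncRNA:CR42755. It had a signal of 688.3 (rank 890) and ranked 550th in replicate 1 and 1020th in replicate 3. In replicate 2 it overlapped a narrower peak of 149 bp ranked 1386th. At the low end of the window, 5 IDR members lay between 11350053 and 11356152, continuing the group cut by the bound.

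The plh window was the least strong at its top. Its strongest member had its summit at 5010337, in an intron of plh (pasang lhamu), 694 bp inside the gene from its TSS on the minus strand. The peak had a pooled signal of 865.6 (rank 614) and ranked 526th, 608th and 747th in replicates 1, 2 and 3. It led the window in every list, with replicate summits 24 to 27 bp from the pooled one.

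The next 4 members of the plh window were all much weaker, with signals of 344.5, 316.4, 312.2 and 304.7 and ranks of 2745, 3104, 3171 and 3298. The first 3 of these, at 4992505, 4995863 and 4989596, lie in introns of plh, 5364 to 11631 bp from the TSS of CG14662. The last, at 5032048, is intergenic and 21017 bp from plh. The peak at 4992505 is 135 bp wide and so was unmatched by 50% of both intervals, but it overlapped peaks ranked 2010th, 2424th and 5309th in replicates 1, 2 and 3. The peak at 4995863 ranked 4590th, 2129th and 4181st, and that at 4989596 ranked 4599th, 2843rd and 2626th. A further 5 IDR members, ranked 3421 to 6440, lay between 4971006 and 4975555, in the interval between Jhbp1 and CG14662.

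**Figure D5:**
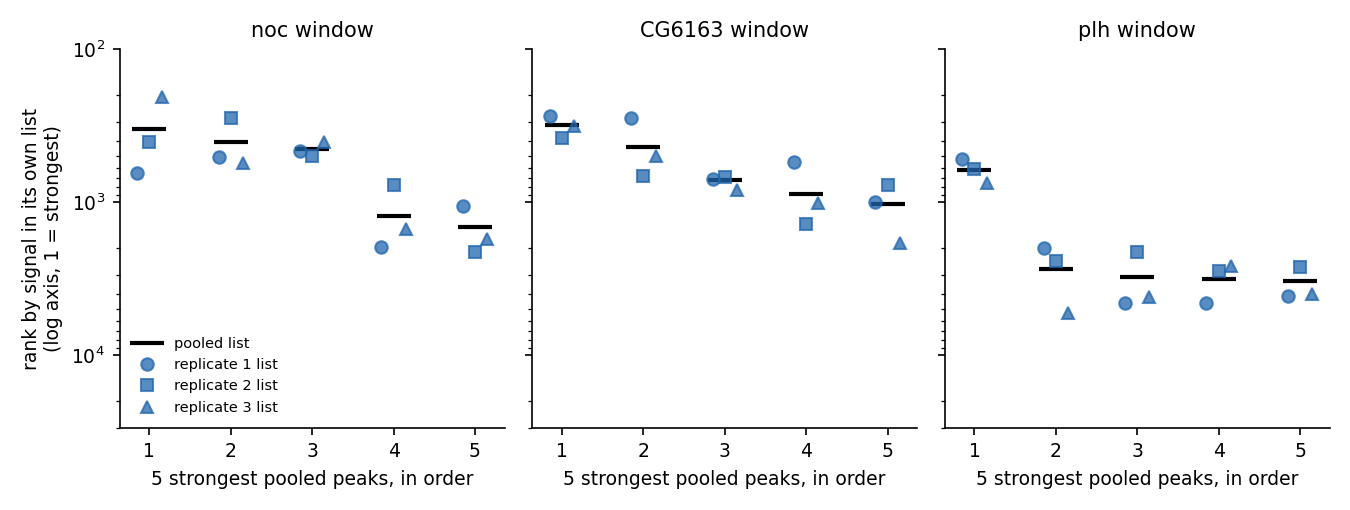
Rank by signal (vertical log axis, 1 the strongest) of the 5 strongest pooled members of the noc, CG6163 and plh windows in the pooled list (black bars) and in the replicate lists (blue points; for a member without a match by 50% of both intervals, the strongest peak that overlaps it). The first 3 in the noc window change order between replicates, and the second member of the plh window ranks 2745, far behind the first at 614.

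Between the lead peak of the plh window and the rest of the gene lay the longest stretch without a pooled summit in any of the windows, 8214 bp from 5002123 to 5010337. It spans an annotated 17.6 element, an LTR retrotransposon of 6752 bp (5002385 to 5009136), which no pooled peak overlaps. The replicate lists had 1, 1 and 0 summits in that stretch, and 1 peak, of replicate 2, overlaps the element. How the authors treated reads from repeated sequence is not given in the sources used here, so a lack of peaks over this element may not be read as a lack of bound protein. The annotated element is that of the reference strain.

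Signal was uneven within each window. The 5 strongest members held 32.6% of the summed signal of the noc window, 27.1% of that of the CG6163 window and 20.7% of that of the plh window. The IDR members held 52.4%, 61.4% and 40.6%. Most members were of ordinary strength: their median rank was 18255 in the noc window, 12753 in the CG6163 window and 15204.5 in the plh window, with 14995 for the rest of the pooled list. The noc window thus combines 3 of the strongest 451 pooled peaks with weak ones, since 35 of its 95 members were among the strongest 15000.

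Neighbouring summits were 756.5 bp apart at the median in the noc window, 813 bp in the CG6163 window and 817 bp in the plh window, against 1281 bp in the whole pooled list. The smallest gap was 199 bp in each window and in the whole list. Gaps under 250 bp were 17 of 94, 20 of 93 and 17 of 85 (18.1%, 21.5% and 20.0%), against 14.2% in the whole list. Windows chosen for their many summits have short gaps by that choice, so neither comparison with the whole list is a test. Sonicated fragments were 200 bp or longer, so such a pair may not be 2 separate places. The stronger peak of such a pair had a median of 1.7, 2.1 and 1.75 times the signal of the weaker. With summits within 250 bp joined, 77, 74 and 69 remained in the noc, CG6163 and plh windows.

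Overlapping peaks formed 65, 72 and 58 separate regions, which covered 43.5%, 42.5% and 38.7% of the noc, CG6163 and plh windows. Most peaks had the same width of 430 bp, 246 of 275 members (89.5%) and 89.0% of the rest, so width says little about the bound stretch. Counted in steps of 10 kb, the noc window held 7 to 14 pooled peaks per step, the CG6163 window 10 to 15 and the plh window 2 to 14. The step with 2 is the one with the 17.6 element.

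In the CG6163 and plh windows, members were found again in all 3 replicate lists more often than other pooled peaks. A pooled peak was matched when a replicate peak overlapped it by at least 50% of both. In all 3 replicate lists, 37 of 95 members were matched in the noc window, 46 of 94 in the CG6163 window and 43 of 86 in the plh window, in all 126 of 275 (45.8%, 39.8 to 51.9). The share was 36.6% in the rest of the list and 36.7% in the whole list. Members matched in none were 6 of 275 (2.18%), against 6.04%. Among IDR members 38 of 48 were matched in all 3 (79.2%), against 68.7% of the other IDR peaks, and among weaker members 88 of 227 (38.8%), against 27.8%. The replicate lists hold 74 to 96 peaks in each of these windows, against a median of 15 to 17 in 80 kb stretches, which leaves more peaks for any member to overlap, and the part of this in the matched share was not tested.

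Ranks of matched members rose and fell together between the lists, least in the plh window. Spearman's rho between 2 replicates, over members matched in both, was 0.653 to 0.676 in the noc window (48 to 51 members), 0.638 to 0.716 in the CG6163 window (55 to 60) and 0.289 to 0.617 in the plh window (46 to 55). These describe peaks that share neighbours and, in close pairs, a replicate peak.

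Summit sequence was richer in G and C in the members than in the rest of the list, with medians of 41.6% and 37.6% within 50 bp of the summit. By window, the medians were 40.6% (noc), 38.6% (CG6163) and 44.6% (plh). All bases of these windows held 41.6%, 40.7% and 41.8% G and C. Member summits were thus below their own window in the noc and CG6163 windows and above it in the plh window. Among the IDR members the medians were 36.6%, 28.7% and 41.6%, against 41.6%, 39.6% and 46.5% among the weaker members of the same windows. In the rest of the list they were 33.7% among IDR peaks, against 38.6% among the others.

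The word ATCGATA, part of the DRE motif found at many fly housekeeping promoters, was absent from all 275 summits (exact 95% interval 0 to 1.33%). It was in 2.96% of the rest, in 6.92% of the promoter summits of the rest and in 1.18% of its other summits. Only 29 of the members are promoter summits. The other words were about as frequent in members as in the rest: TATAAA 17.8% and 17.4%, TAATTA 8.0% and 8.0%, AGATAA 6.55% and 7.23%, TAAACA 13.1% and 13.6%, GAGAG 8.36% and 11.6%, and CAGGTA 1.82% and 1.96%. A word is a match of letters and says nothing of which protein was bound.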

How the data were processed

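Peaks were analysed for 3 ChIP-seq samples of 1 group. Per the README listings, the authors deposited 5 peak lists on dm6: 1 per replicate, 1 pooled and 1 filtered by IDR, with 1 control for the replicate calls, whose track was not used here. Aligner and caller: not given in the sources used here. For a peak, the authors deposited a signal, a −log10 q-value (at most 4.16 in these lists) and a summit offset. Signal was used only within a list.

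A member is a pooled peak with its summit in a window. The windows, genes and words were chosen with earlier results of these data known. Named are every protein-coding gene with a start site in a window and the 5 strongest members with their nearest genes. Other genes are counted; those named for the summit at their start, for lying outside a window, and the narrow matches were chosen after their values were seen.

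Genes came from Ensembl release 115 without transposable elements, and all 27 had the same coordinates in RefSeq. Classes were assigned in the order promoter, UTR, coding exon, other exon, intron, intergenic. Scripts used Python 3.11.15, pandas 2.3.3, numpy 2.4.6 and scipy 1.17.1, and were tested on simulated lists. No test was run, since the windows were chosen from the pooled list that the replicates make up. Peak lists give no depth, and intervals are exact 95% binomial intervals.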

Additional observations from a re-analysis of the deposited data

How the results depend on the processing

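The lists give no read counts, are limited to 30000 peaks and say nothing of repeated sequence, and close pairs of summits may be 1 place. Over the alternatives run, 51 values stayed within, and 45 moved beyond, the spread of their kind: 1.5 times for counts, the exact 95% interval for shares, the replicate SD for gaps and ranks, and 100 bp for strongest summits. Values are given for the noc, CG6163 and plh windows in that order. With the strongest 15000 peaks of a list, 35, 54 and 43 pooled peaks were left, 43.3, 59.0 and 47.7 replicate peaks on average, and shares matched in all 3 replicates of 21.1%, 26.6% and 25.6%. With as many replicate peaks as the IDR list holds, 14.7, 22.7 and 15 were left. The stronger 50% of the IDR list held 13 peaks in the CG6163 window and 4 in the plh window, and 10 in the noc window. Counted as matched by 1 bp of overlap, the shares were 55.8%, 80.9% and 72.1%; by summits within 100 bp, 23.2%, 36.2% and 36.0%. Leaving out 1 replicate gave 50.5 to 53.7%, 58.5 to 63.8% and 53.5 to 64.0%, since matches in 2 lists are then enough. Promoter shares were 33.7%, 16% and 14.0% within 1000 bp, 12.6%, 4.26% and 2.33% within 250 bp, and 4.21%, 5.32% and 1.16% at protein-coding TSS alone. Median gaps with summits within 250 bp joined, an alternative chosen after seeing the data, were 863.5, 960 and 1014 bp. In the replicate lists, median gaps were averaged with 1 replicate left out. They were 795.25, 795.75 and 820.5 bp (noc), 799.5 to 810 bp (CG6163), and 847.5, 855 and 877.5 bp (plh). All were set against the pooled medians of 756.5, 813 and 817 bp, so a move mixes the change of list with the replicate left out. The full lists of replicates 1, 2 and 3 had medians of 821, 820 and 770.5 bp (noc), 799, 820 and 800 bp (CG6163), and 870, 885 and 825 bp (plh). The strongest peak of the noc window was at 14547124 in replicate 1 and 14505224 in replicate 2. Members matched in all 3 replicates had median ranks of 9083, 9011 and 9984. Except where a setting itself leaves fewer peaks, the cause was not tested. No paired analysis was possible because there is 1 group.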
